A study of Mus musculus with 20 samples.

Results

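The unfolded protein response and its endoplasmic reticulum (ER) chaperones are described here through 10 genes: Hspa5, Hsp90b1, Calr, Canx, Pdia4, Edem1, Dnajb9, Xbp1, Atf6 and Ern1. They were taken by symbol from an expression table of 37748 gene entries, and all 10 were among the 10890 entries that passed the filter on low values. RNA was sequenced from CFU-E, the committed red cell progenitors of the bone marrow, in 4 groups of 5 mouse libraries. Control mice were Mx1-Cre, and mutant mice were Mx1-Cre Srsf2P95H/+ (called P95H), which are heterozygous for a change in the splicing factor Srsf2. All mice of both genotypes therefore carried the Mx1-Cre transgene, in which Cre is driven by the interferon-responsive Mx1 promoter, active in blood cells and also in other tissues. Mice of each genotype received PBS or phenylhydrazine (PHZ), which lyses red cells and forces the marrow to replace them. PHZ was given under the skin at 30 mg/kg, once on day 0 and once on day 1, and day 4 was the day of the sort. The gate was c-Kit-high and CD105-positive, among live lineage-negative cells without CD16/32, CD150, CD41 or Sca-1. The labels give neither the age of the mice nor how Cre was induced. Each library name carries its own number, but nothing states that the libraries of a group came from separate mice, so p-values measure only the spread between these libraries.

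The ER folds the proteins that a cell secretes or places in its membranes, and the unfolded protein response adjusts its folding capacity to demand. Misfolded proteins activate 3 sensors in the ER membrane, ATF6, IRE1 (encoded by Ern1) and PERK (encoded by Eif2ak3), and IRE1 splices the mRNA of the transcription factor XBP1. The targets include chaperones such as BiP (Hspa5) and GRP94 (Hsp90b1), the lectin chaperones calreticulin and calnexin, disulphide isomerases and the machinery that sends misfolded proteins to degradation. Red cell progenitors make large amounts of membrane proteins, among them the transferrin receptor and the glycophorins, before the ER is lost at the end of maturation.

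The ER stress response element (ERSE), a binding site of ATF6 and XBP1 together with NF-Y, was looked for in the 250 bases before the RefSeq start of each gene, since 5 of the genes below varied together. The letters searched, on both strands, were CCAAT and CCACG with 9 bases of any kind between them. An exact match stood in 37 of 32851 promoters (0.113%) and in 4 of the 9 genes with a promoter entry. The promoters of the 5 genes that varied together are shown from RefSeq on GRCm38.p6, each on the strand of its gene, with exact ERSE matches in capitals. The windows are chr2:34771840-34772089 on the plus strand for Hspa5 and, on the minus strand, chr10:86705445-86705694 for Hsp90b1, chr8:84846932-84847181 for Calr, chr11:50325674-50325923 for Canx and chr6:47813513-47813762 for Pdia4.
Hspa5: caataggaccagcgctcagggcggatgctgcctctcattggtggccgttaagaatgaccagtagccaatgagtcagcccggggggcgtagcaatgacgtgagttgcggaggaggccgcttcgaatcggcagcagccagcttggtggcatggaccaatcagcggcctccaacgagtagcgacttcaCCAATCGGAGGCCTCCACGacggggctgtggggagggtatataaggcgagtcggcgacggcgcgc
Hsp90b1: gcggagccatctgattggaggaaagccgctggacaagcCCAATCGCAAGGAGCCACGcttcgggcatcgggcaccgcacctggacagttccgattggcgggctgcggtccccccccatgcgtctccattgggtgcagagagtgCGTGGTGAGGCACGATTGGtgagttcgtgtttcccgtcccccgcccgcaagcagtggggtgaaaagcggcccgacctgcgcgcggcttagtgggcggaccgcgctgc
Calr: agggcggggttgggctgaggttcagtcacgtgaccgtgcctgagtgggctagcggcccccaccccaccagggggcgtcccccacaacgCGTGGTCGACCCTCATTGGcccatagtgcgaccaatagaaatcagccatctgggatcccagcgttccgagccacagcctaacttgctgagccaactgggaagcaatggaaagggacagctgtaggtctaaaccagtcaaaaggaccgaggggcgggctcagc
Canx: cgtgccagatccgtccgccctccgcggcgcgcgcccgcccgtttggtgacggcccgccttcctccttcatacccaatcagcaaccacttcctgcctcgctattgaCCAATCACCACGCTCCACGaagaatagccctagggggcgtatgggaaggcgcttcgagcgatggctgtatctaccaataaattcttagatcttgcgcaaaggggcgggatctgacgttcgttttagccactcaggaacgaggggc
Pdia4: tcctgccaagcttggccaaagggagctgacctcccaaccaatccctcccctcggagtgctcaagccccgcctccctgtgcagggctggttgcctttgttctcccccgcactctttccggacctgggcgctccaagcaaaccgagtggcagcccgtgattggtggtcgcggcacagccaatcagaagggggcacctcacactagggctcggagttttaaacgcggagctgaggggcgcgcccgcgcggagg
Counted from the RefSeq start, the match lay at bases -65 to -47 in Hspa5 and at -145 to -127 in Canx. In Calr it lay at -162 to -144 on the opposite strand. Hsp90b1 held 2 matches, at -212 to -194 and, on the opposite strand, at -107 to -89, and was the 1 promoter of the 32851 with more than 1. The promoter of Pdia4 held CCAAT letters but no exact ERSE, and neither did the windows of Edem1, Dnajb9, Xbp1 and Ern1. Of the ERSE's 2 ends, which overlap it, CCACG was present in 7 of the 9 promoters against 28.3% of all, and CCAAT in 7 of the 9 against 33.8%. ERSE-II (ATTGG and CCACG with 1 base between them) was in 0 of the 9 and 0.0304% of all promoters, and the core of the XBP1 element (TGACGTGG) in 0 of the 9 and 0.563%. The cyclic AMP element core (TGACGT), part of the previous motif, was in Hspa5 and Canx and in 6.47% of all promoters. These matches describe letters in a window and not binding. The element is named for this response and the genes were chosen as its members. Their share beside that of all promoters is therefore a description and not a test.

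The deposited values have the form of TPM, a share of all transcripts corrected for gene length, multiplied by 1 factor for each library. The values themselves do not show whether gene length was corrected for. The comparisons of levels between genes below rest on that form. Averaged over the 20 libraries, the signal was 724 for Calr, 612 for Canx, 499.9 for Hspa5, 394 for Hsp90b1, 68.1 for Pdia4, 39.8 for Xbp1, 17.2 for Edem1, 15.7 for Atf6, 9.60 for Dnajb9 and 4.99 for Ern1. The 4 leading chaperones were thus among the genes of highest signal. Calr lay above 98.3% of the genes that passed the filter and Hsp90b1 above 96.9%, whereas Ern1 lay above 21.8%. Of the 9 neighbouring pairs in this order, 6 kept it in 20 of 20 libraries. Calr exceeded Canx in 18, Edem1 exceeded Atf6 in 17 and Atf6 exceeded Dnajb9 in 19 of 20 libraries, so those pairs overlapped.

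**Figure D1:**
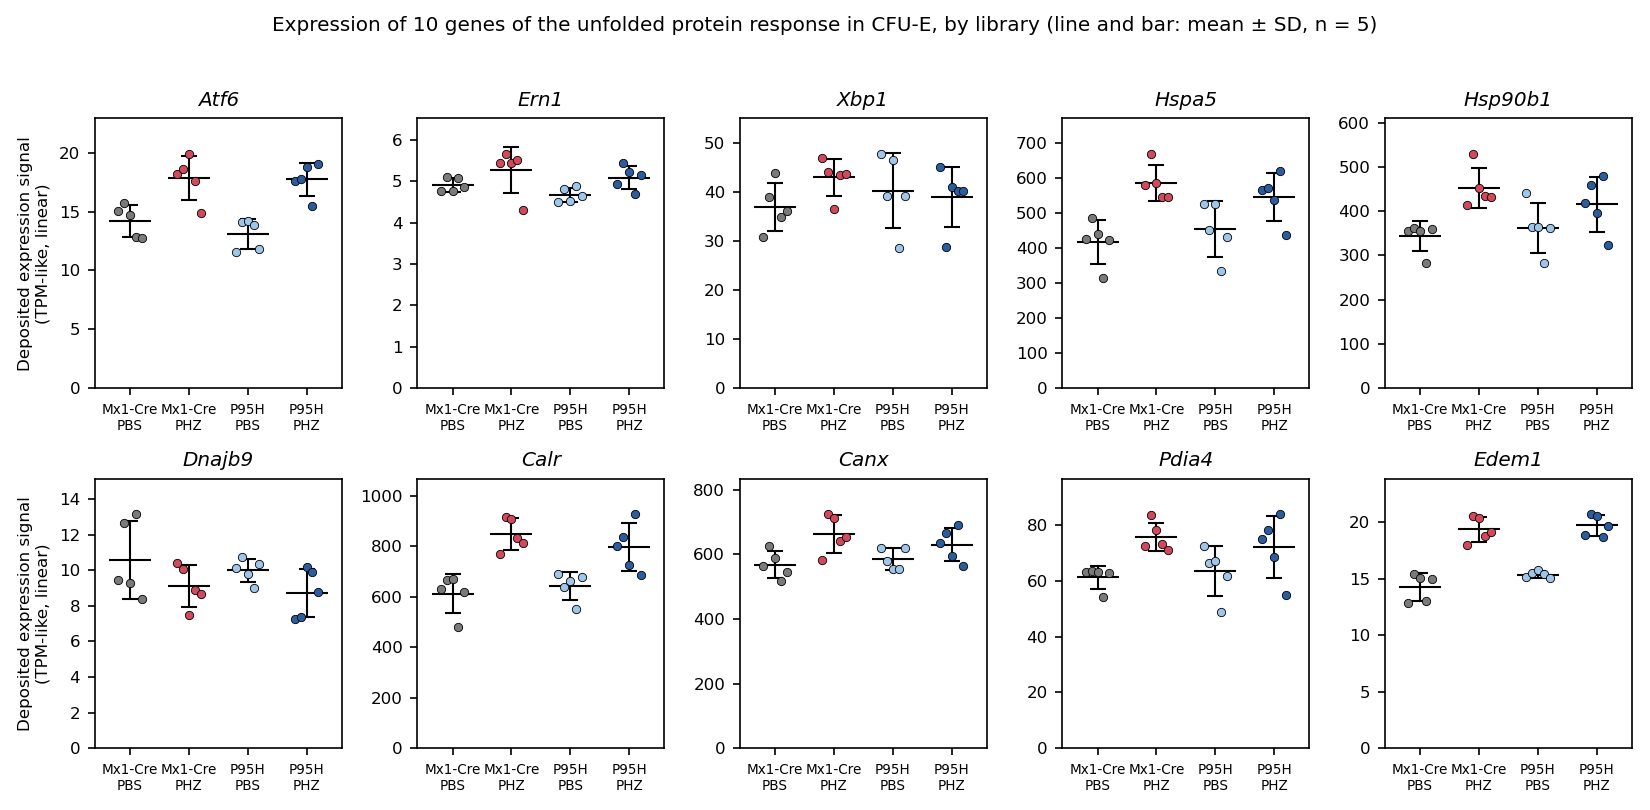
Deposited signal (TPM-like, linear axis from 0) of the 10 genes in each of the 20 libraries, with 1 point per library and the mean ± SD of each group of 5 as a line and bar. In Mx1-Cre, every PHZ library lies above every PBS library for Hspa5, Hsp90b1, Calr, Pdia4 and Edem1. In P95H this holds for Atf6 and Edem1.

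Klf1, a master regulator of red cell genes, and Epor, the erythropoietin receptor, were above 0 in 20 of 20 libraries. So were the granulocyte markers Mpo and Elane, so presence alone does not show purity. Kit, which encodes the c-Kit of the gate, was called lower after PHZ in both genotypes (log2 fold changes -0.80 and -0.77). It was at 108 ± 27.5 and 60.6 ± 5.72 in Mx1-Cre, and at 87.7 ± 13.1 and 51.9 ± 12.9 in P95H (SD, n = 5). Whether the PBS and PHZ cells were of the same stage was not tested. Library sums of the signal ranged from 924763 to 1085050, between 10364 and 10755 entries reached a value of 1, and the number of reads behind each value is unknown. Signal from granulocytes and monocytes was present at levels that varied between libraries. The summed signal of 18 markers of these cells, which include Mpo, Elane and S100a8, ran in Mx1-Cre from 445 to 939 after PBS and from 148 to 1061 after PHZ, and in P95H from 549 to 2412 and from 156 to 587. Of the 16 that passed the filter, 1 was lower after PHZ in Mx1-Cre and all 16 were lower after PHZ in P95H, beside 14.9% and 17.7% of all genes tested. Between the genotypes, 0 of the 16 were called after PBS and 0 after PHZ, beside 1.48% and 5.47% of all genes. Cebpe reached the filter value of 1 in 0 P95H PHZ libraries and Ms4a3 in 2, beside 4 and 5 P95H PBS libraries. The calls of these 2 support nothing. The 12 markers of B cells and of plasma cells, which hold much ER, summed to 6.91 to 31.1, and Jchain was listed at 0 in 6 libraries and Irf4 in 8. Sdc1, a plasma cell marker that was above 0 in 20 libraries, was higher after PHZ, at 2.61 ± 0.827 and 7.86 ± 1.56 in Mx1-Cre and at 3.22 ± 0.626 and 8.76 ± 2.61 in P95H (SD, n = 5), and its part in the results was not tested. Fewer cells of a type and less RNA per cell cannot be told apart in bulk samples. Srsf2 itself, whose gene-level signal does not show the mutation, was at 679 ± 31.9 after PBS and 685 ± 35.6 after PHZ in Mx1-Cre, and at 623 ± 49.3 and 586 ± 20.2 in P95H (SD, n = 5).

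After PHZ, Hspa5, Hsp90b1, Calr, Canx, Pdia4, the degradation gene Edem1 and the sensor gene Atf6 were higher in Mx1-Cre CFU-E. In limma fits of log2(value + 1) over all 20 libraries, 7 of the 10 genes were called higher and 0 lower at an adjusted p under 0.05, against 17% of all genes tested called higher (1856 higher and 1618 lower). The median log2 fold change was 0.30 over the 10 genes and 0.00 (-0.0015) over all genes tested. In 5 of the 10, the groups did not overlap, which was so, in the same direction, for 12.6% of all genes. The called changes were of moderate size, from 0.22 to 0.49 on the log2 scale. With the library factor of the deposited values divided out, the split over all genes became 2236 higher and 1216 lower, and the same 7 of the 10 genes were called.

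Of the sensors, Atf6, a membrane-bound transcription factor that is cut in the Golgi and then enters the nucleus, was expressed at 15.1, 15.8, 14.7, 12.8 and 12.8 in the Mx1-Cre PBS libraries. It was at 18.2, 18.6, 19.9, 17.6 and 14.9 after PHZ, where replicate 5 overlapped the PBS range. Atf6 rose from 14.2 ± 1.35 to 17.9 ± 1.87 (SD, n = 5), a log2 fold change of 0.31 (SE 0.0827, limma adjusted p = 0.0075). Ern1 had values of 4.76 to 5.10 after PBS and 4.30 to 5.67 after PHZ, and did not pass the test (log2 fold change 0.08, 95% confidence interval -0.06 to 0.22, limma adjusted p = 0.404). The 4 Ern1 values above the PBS range were offset by replicate 5, which was below it. Xbp1, the target of IRE1, gave 30.9, 39.0, 44.0, 34.9 and 36.2 after PBS and 47.0, 44.1, 36.6, 43.5 and 43.6 after PHZ. Its groups overlapped and the difference did not pass (log2 fold change 0.22, 95% confidence interval -0.05 to 0.48, limma adjusted p = 0.21). The values are per gene, so they do not separate the spliced from the unspliced form of Xbp1.

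Among the chaperones, Hspa5, which encodes the Hsp70 of the ER and holds the sensors inactive, was at 425, 484, 440.0, 314 and 423 in Mx1-Cre PBS. After PHZ it was at 578, 669, 585, 544 and 544, each above every PBS library. Hspa5 rose 1.41-fold (log2 fold change 0.49, SE 0.122, limma adjusted p = 0.0043), from 417 ± 62.6 to 584 ± 51.0 (SD, n = 5). Hsp90b1, the Hsp90 of the ER, was at 356, 362, 356, 283 and 360.1 after PBS and at 413, 531, 453, 435 and 431 after PHZ. It rose from 343 ± 33.8 to 453 ± 45.9, again without overlap (log2 fold change 0.40, SE 0.110, limma adjusted p = 0.00897). Dnajb9, an ER co-chaperone of BiP, went against this pattern in sign: it was at 9.43, 12.7, 9.27, 13.2 and 8.39 after PBS and at 10.4, 10.1, 7.50, 8.90 and 8.67 after PHZ. The Dnajb9 groups overlapped and the difference did not pass (log2 fold change -0.18, 95% confidence interval -0.42 to 0.05, limma adjusted p = 0.234).

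The 2 lectin chaperones hold newly made glycoproteins until they are folded. Calr was at 629.9, 666, 668, 479 and 619 in Mx1-Cre PBS and at 769.6, 914, 906, 833 and 814 after PHZ, with no overlap. It rose from 612 ± 77.7 to 847 ± 62.0 (SD, n = 5; log2 fold change 0.48, SE 0.0910, limma adjusted p = 0.000495). Canx, its membrane-bound relative, was at 564, 626, 588, 518 and 547 after PBS and at 583, 725, 714, 642 and 653 after PHZ. Its groups overlapped in 1 PHZ library, replicate 1, and its rise was the smallest of the 7 (log2 fold change 0.22, SE 0.0682, limma adjusted p = 0.0172). Pdia4, a disulphide isomerase, was at 62.9, 63.5, 63.1, 54.0 and 62.7 after PBS and at 72.4, 83.4, 78.3, 73.1 and 71.0 after PHZ. The Pdia4 groups did not overlap (log2 fold change 0.30, SE 0.0993, limma adjusted p = 0.0252).

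Edem1, which takes mannose-trimmed misfolded glycoproteins out of the folding cycle for degradation, had the smallest p of the 10. It was at 12.9, 15.4, 15.1, 13.1 and 15.0 in Mx1-Cre PBS and at 18.0, 20.6, 20.4, 18.8 and 19.2 after PHZ. The groups were separated by more than their spread, 14.3 ± 1.21 against 19.4 ± 1.094 (SD, n = 5; log2 fold change 0.42, SE 0.0584, limma adjusted p = 1.85e-05). The calls of Canx and Pdia4 were the least stable of the 7: without Mx1-Cre PBS replicate 4 their adjusted p-values were 0.0565 and 0.0787, without Mx1-Cre PHZ replicate 2 they were 0.0526 and 0.0657, and without Mx1-Cre PHZ replicate 3 they were 0.0548 and 0.0559. With the granulocyte and monocyte marker level as a covariate, 3 of the 7 stayed called, Hspa5 at 0.35 (adjusted p = 0.04), Calr at 0.39 (adjusted p = 0.00623) and Edem1 at 0.41 (adjusted p = 0.000181), while the log2 fold changes of Hsp90b1, Canx, Pdia4 and Atf6 were 0.27, 0.17, 0.17 and 0.24 with adjusted p-values from 0.0569 to 0.213. Over all genes, 1337 were called higher and 1093 lower with that covariate, beside 1856 and 1618 without it. Pdia4 was also not called after quantile normalization (adjusted p = 0.0572) or with no filter (adjusted p = 0.0535).

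In P95H CFU-E, PHZ was followed by higher Edem1, Atf6 and Calr. These 3 of the 10 genes were called higher and 0 lower, against 12.6% of all genes tested called higher (1371 higher and 1923 lower). The median log2 fold change was 0.19 over the 10 genes and -0.02 over all. Without overlap were 2 of the 10, Edem1 and Atf6, against 7.59% of all genes in that direction. With the library factor divided out, the split over all genes turned to 2583 higher and 1111 lower and 7 of the 10 genes were called, and with quantile normalization the split was 1687 and 1722 and 5 were called.

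Edem1 in P95H was at 15.1, 15.5, 15.8, 15.4 and 15.1 after PBS and at 18.9, 20.8, 20.6, 18.7 and 19.7 after PHZ. It rose from 15.4 ± 0.284 to 19.7 ± 0.934 (SD, n = 5; log2 fold change 0.34, SE 0.0584, limma adjusted p = 0.000162). Atf6 was at 11.6, 14.1, 14.2, 13.8 and 11.9 after PBS and at 17.6, 17.8, 18.8, 15.5 and 19.1 after PHZ. Each Atf6 value after PHZ was above each after PBS (log2 fold change 0.41, SE 0.0827, limma adjusted p = 0.000728). Calr was at 688, 638, 662, 549.6 and 676 after PBS and at 802, 835, 725, 927 and 686 after PHZ, where replicate 5 overlapped the PBS range. The change of Calr was 0.30 (SE 0.0910, limma adjusted p = 0.015).

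The other chaperones had positive log2 fold changes that did not pass. Hspa5 was at 525, 451, 526, 333 and 431 in P95H PBS and at 566, 570.2, 536, 618 and 436 in P95H PHZ. The libraries at 333 and 436, replicate 4 of the PBS group and replicate 5 of the PHZ group, were the lowest of their groups, and the groups overlapped through replicate 5 (log2 fold change 0.28, 95% confidence interval 0.02 to 0.53 before adjustment, limma adjusted p = 0.0934). Hsp90b1 was at 442, 364, 364, 283 and 361 after PBS and at 419, 460.4, 397, 481 and 323 after PHZ (log2 fold change 0.20, limma adjusted p = 0.182). Pdia4 ranged from 48.9 to 72.5 after PBS and from 55.0 to 83.9 after PHZ (0.18, limma adjusted p = 0.174), and Canx from 554 to 621 and from 563 to 690.1 (0.10, limma adjusted p = 0.268). Dnajb9 was at 10.003 ± 0.652 and 8.71 ± 1.36 (SD, n = 5; log2 fold change -0.19, limma adjusted p = 0.219). Xbp1 was at 40.3 ± 7.68 and 39.0 ± 6.14 (log2 fold change -0.04, limma adjusted p = 0.85), with single libraries at 28.6 after PBS and 28.7 after PHZ far below the rest of their groups. Ern1 was at 4.67 ± 0.173 and 5.09 ± 0.281 (log2 fold change 0.10, limma adjusted p = 0.286).

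Single libraries moved the P95H counts. Without P95H PHZ replicate 5, 6 genes were called, the added ones being Hspa5 (0.35, adjusted p = 0.0311), Hsp90b1 (0.29, adjusted p = 0.0393) and Pdia4 (0.27, adjusted p = 0.0216). Without P95H PBS replicate 4, Calr was not called (0.25, adjusted p = 0.0519). Leaving out P95H PBS replicates 4 and 5, the libraries highest in granulocyte and monocyte markers, left 2 called, Edem1 (0.33, adjusted p = 0.00232) and Atf6 (0.39, adjusted p = 0.00715). With those markers as a covariate Edem1 alone was called (0.32, adjusted p = 0.0177). Atf6 was then at 0.28 (adjusted p = 0.124) and Calr at 0.14 (adjusted p = 0.532), and Hspa5, Hsp90b1 and Pdia4 were at -0.01, -0.05 and -0.07. Over all genes, 1371 higher and 1923 lower became 837 and 1263 without P95H PBS replicates 4 and 5. They became 447 and 562 with the covariate. All 16 of the markers tested were themselves called lower after PHZ in P95H, so the covariate varied with the treatment.

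**Figure D2:**
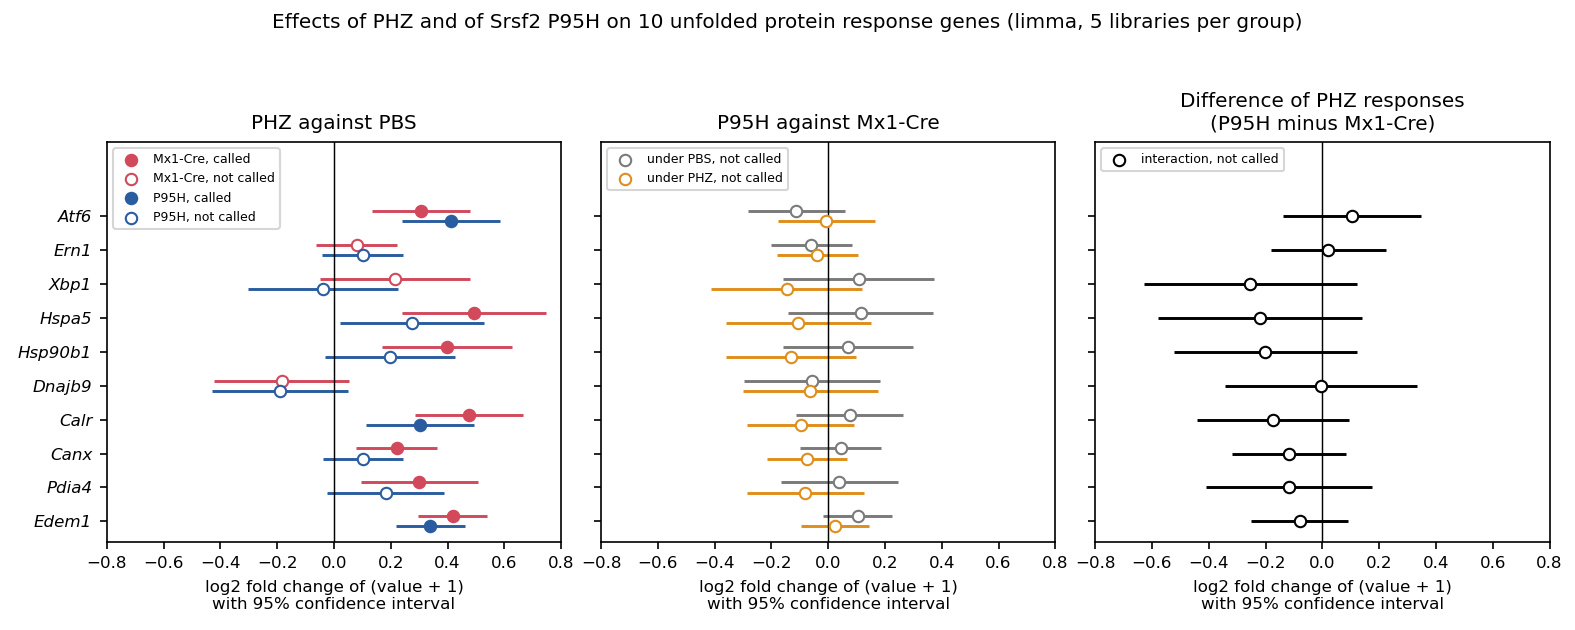
Log2 fold changes of log2(value + 1) with 95% confidence intervals from limma for the 10 genes: the PHZ effect by genotype (left), the genotype effect by treatment (middle), and the difference of the PHZ responses (right). Filled points passed an adjusted p of 0.05: 7 genes in Mx1-Cre, 3 in P95H, and 0 in the other contrasts.

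The Srsf2 mutation by itself was not accompanied by a called change in any of the 10 genes. After PBS, 0 of the 10 were called between the genotypes (limma with Benjamini-Hochberg adjustment, 0 at an unadjusted p under 0.05), where 1.48% of all genes were called (39 higher and 122 lower in P95H; 50 and 79 with quantile normalization). Log2 differences ran from -0.11 for Atf6 to 0.11 for Hspa5, and the lowest adjusted p was 0.437, for Edem1 (0.10, 95% confidence interval -0.02 to 0.22). The intervals bound the differences: that of Canx ran from -0.10 to 0.18, that of Ern1 from -0.20 to 0.08 and that of Hspa5, which varied more between libraries, from -0.14 to 0.37.

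After PHZ, 0 of the 10 were called between the genotypes by limma (0 at an unadjusted p under 0.05), where 5.47% of all genes were called (120 higher and 476 lower in P95H; 125 and 166 with quantile normalization, 133 and 145 with the library factor divided out). Of the 10 log2 differences, 9 were negative, from -0.15 for Xbp1 to 0.02 for Edem1, with a median of -0.08 beside -0.05 over all genes. The median was -0.02 both with quantile normalization and with the library factor divided out. The interval was -0.36 to 0.15 for Hspa5, -0.29 to 0.09 for Calr, -0.22 to 0.07 for Canx and -0.10 to 0.15 for Edem1, with a lowest adjusted p of 0.538. Both comparisons share their groups with the PHZ contrasts above.

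The PHZ responses of the 2 genotypes did not differ by the test of that difference in any of the 10 genes, and by limma 0 of 10890 genes passed (577 at an unadjusted p under 0.05, none of them among the 10). The difference, P95H minus Mx1-Cre, was -0.25 for Xbp1 (95% confidence interval -0.63 to 0.12), -0.22 for Hspa5 (-0.58 to 0.14), -0.20 for Hsp90b1 (-0.52 to 0.12) and -0.17 for Calr (-0.44 to 0.09). For Atf6 it was 0.11 (-0.14 to 0.35), and for Edem1 -0.08 (-0.25 to 0.09). The lowest adjusted p was 0.798, so the 7 calls in Mx1-Cre and 3 in P95H are not shown to be different responses. The intervals of Hspa5, Hsp90b1, Xbp1, Canx (-0.32 to 0.08) and Pdia4 (-0.41 to 0.17) include negative differences as large as their PHZ effects in Mx1-Cre. For Calr, Edem1 and Atf6 the lower ends were smaller in size than those effects.

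Within groups, Hspa5, Hsp90b1, Calr, Canx and Pdia4 varied together more closely than most other pairs of the 10 genes. The 5 named were set apart by hand, so the ranges below describe that choice and test nothing. After the group means were subtracted, the 10 pairs among Hspa5, Hsp90b1, Calr, Canx and Pdia4 had Pearson correlations of 0.64 to 0.96 over the 20 libraries, with a median of 0.86. The closest pair was Hsp90b1 with Pdia4. The loosest was Hspa5 with Canx (0.64), and Canx ranked only 410 of 10889 genes in this likeness to Hspa5. The 25 pairs of these 5 with Edem1, Dnajb9, Xbp1, Atf6 and Ern1 had correlations of -0.24 to 0.46 (median -0.03), and the 10 pairs among the latter -0.32 to 0.60 (median 0.09), with Atf6 and Ern1 at the top. Edem1, which rose with the chaperones after PHZ, had correlations of 0.17 to 0.41 with them within groups. The points of these correlations share library and depth, and they are given as a description.

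The shared variation was largest in a few libraries. In 3 libraries, Mx1-Cre PBS replicate 4, P95H PBS replicate 4 and P95H PHZ replicate 5, each of the 5 chaperone genes was the lowest of its group, with mean log2 deviations from the group means of -0.26, -0.28 and -0.28. In P95H PHZ replicate 4 all 5 were the highest of their group (0.20), as they were in Mx1-Cre PHZ replicate 2 (0.16). In P95H PBS replicate 1 (0.18) and Mx1-Cre PBS replicate 2 (0.13), 4 of the 5 were the highest. The mean log2 level of the granulocyte and monocyte markers was 3.78, 4.92 and 3.27 in the 3 low libraries, and the chaperone deviation had a correlation of -0.53 with the deviation of those markers over the 20 libraries. P95H PBS replicate 5, with the highest marker level of all libraries (5.03), had a chaperone deviation of 0.02. The part of these cells in the shared variation was not tested beyond these values.

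**Figure D3:**
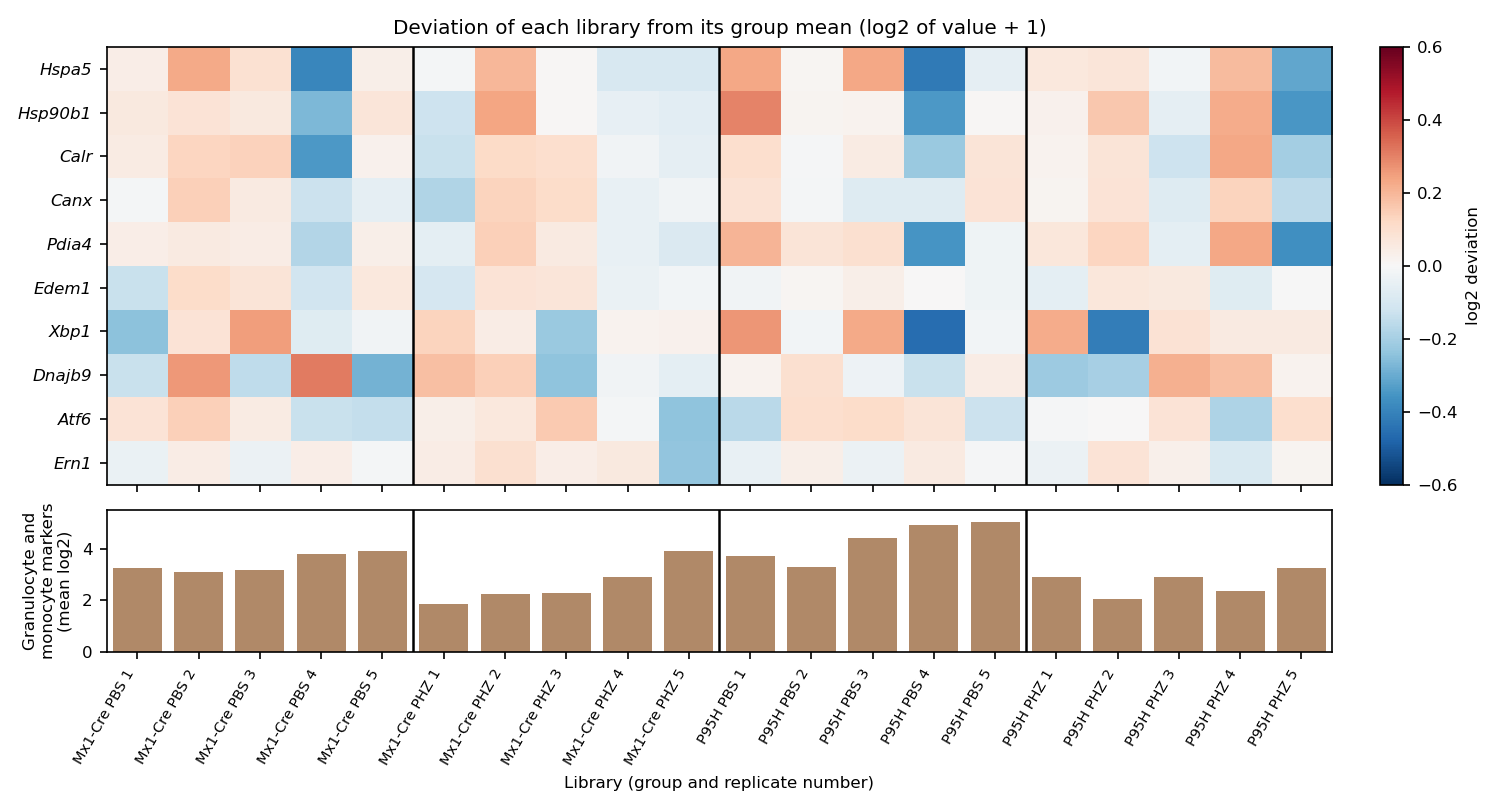
Colours show the deviation of each gene in each library from its group mean (log2 of value + 1, scale from -0.6 to 0.6), and the bars below show the mean log2 level of the granulocyte and monocyte markers in the same libraries. The upper 5 rows (Hspa5 to Pdia4) are blue together in Mx1-Cre PBS 4, P95H PBS 4 and P95H PHZ 5, where their mean deviations are -0.26, -0.28 and -0.28.

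The genes whose levels followed Hspa5 most closely were other folding factors of the ER together with genes of other kinds. Over the 20 libraries, members aside, the 8 highest Pearson correlations with Hspa5 among the 10889 other genes tested were those of Dnajb11 (0.95), Hyou1 (0.94), Hspa4 (0.94), Sdf2l1 (0.93), Ldah (0.93), Rpl7l1 (0.93), Xpo5 (0.92) and Nudcd1 (0.92). Dnajb11 and Sdf2l1 are co-chaperones of the BiP cycle and Hyou1 is a nucleotide exchange factor of BiP, whereas Hspa4 is a cytosolic Hsp110 protein and Xpo5 a nuclear export receptor. With group means subtracted, the 8 were Sdf2l1 (0.94), Dnajb11 (0.89), Nudcd1 (0.89), Ndc1 (0.89), Prokr1 (0.88), Hspa4 (0.88), Rpl7l1 (0.88) and Seh1l (0.88). Among the 10 genes, Hsp90b1 ranked 2, Pdia4 5 and Calr 6 in likeness to Hspa5, while Canx ranked 307, Edem1 643, Atf6 1790, Xbp1 2242 and Ern1 3656. Dnajb9 had a correlation of -0.34. These correlations rest on 20 libraries that share group effects, and no test was attached to them.

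The wider ER machinery was followed in 9 lists of 123 other genes, of which 115 passed the filter. After PHZ in Mx1-Cre, 46 of the 115 were called higher and 5 lower (40% and 4.35%, beside 17% and 14.9% of all genes tested), with a median log2 fold change of 0.14. In P95H, 26 were called higher and 7 lower (22.6% and 6.09%, beside 12.6% and 17.7%), with a median of 0.07. With the granulocyte and monocyte marker level as a covariate these counts were 30 and 3 in Mx1-Cre and 4 and 4 in P95H. Over all 10890 genes tested they were then 1337 and 1093, and 447 and 562. With the library factor divided out the list counts were 52 and 3, and 53 and 5. Beside them stood 2236 and 1216, and 2583 and 1111, of 10896 genes. Without P95H PBS replicates 4 and 5 the P95H counts were 13 and 6, beside 837 and 1263 of 10890 genes. The 46 and 26 called higher include Nupr1 and Trib3, which reached the filter value of 1 mainly after PHZ. With a filter at 5, 43 of 106 were higher and 4 lower in Mx1-Cre, and 26 and 7 in P95H. Over all 8741 genes of that filter, 1711 and 1295 were called in Mx1-Cre, and 1207 and 1607 in P95H. Between the genotypes, 0 of the 115 were called after PBS, beside 1.48% of all genes tested. After PHZ, 1 was higher and 3 were lower in P95H, beside 5.47% of all genes called in either direction. Over all genes, the 120 higher and 476 lower of this contrast became 125 and 166 with quantile normalization. With the library factor divided out they became 133 and 145. The genotype calls of single list genes were not followed under the alternatives.

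The list of 13 further chaperones and co-chaperones had 7 genes higher and 1 lower in Mx1-Cre, and 3 higher and 1 lower in P95H. Shares over all genes tested were 17% higher and 14.9% lower in Mx1-Cre, and 12.6% and 17.7% in P95H. With the library factor divided out, 7 and 8 of the list were higher, beside 2236 and 2583 of all 10896 genes. With the marker covariate 4 and 0 were higher, beside 1337 and 447 of all 10890. Sdf2l1 rose from 42.7 ± 7.13 to 72.4 ± 5.49 in Mx1-Cre (SD, n = 5; log2 fold change 0.77, limma adjusted p = 0.000275) and from 41.5 ± 6.68 to 57.4 ± 10.6 in P95H (0.45, limma adjusted p = 0.0148). Without P95H PBS replicates 4 and 5 the P95H call of Sdf2l1 did not hold (adjusted p = 0.149). Hyou1 rose in Mx1-Cre (0.45, limma adjusted p = 0.00245) and had a value of 0.25 in P95H (limma adjusted p = 0.0708). Creld2, a secreted ER stress protein, rose by 0.38 in Mx1-Cre (limma adjusted p = 0.00945) and had 0.24 in P95H (limma adjusted p = 0.0993).

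Of 16 disulphide isomerases and oxidation factors, 6 were higher and 1 lower in Mx1-Cre and 5 higher in P95H. Shares over all genes tested were 17% higher and 14.9% lower in Mx1-Cre, and 12.6% higher in P95H. With the library factor divided out, 8 of the list were higher in each genotype, beside 2236 and 2583 of all 10896 genes. With the marker covariate 3 and 0 were higher, beside 1337 and 447 of all 10890. Ero1l, the oxidase that recharges the isomerases, rose in both (0.46 and 0.35, limma adjusted p = 0.000255 and 0.00262), as did the membrane thioredoxin Tmx3 (0.30 and 0.51, limma adjusted p = 0.0112 and 0.000128). Pdia5 rose in Mx1-Cre (0.56, limma adjusted p = 0.00122) and had 0.30 in P95H (limma adjusted p = 0.0566). The level of Pdia5 after PHZ was lower in the mutant (-0.43, limma adjusted p = 0.039), but the difference between its PHZ responses did not pass (-0.26, limma adjusted p = 0.798).

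Of 16 genes of N-glycan processing and the calnexin cycle, 9 were higher in Mx1-Cre and 2 in P95H, with 0 lower in either, beside 17% and 12.6% of all genes called higher. With the library factor divided out, 10 and 9 were higher, beside 2236 and 2583 of all 10896 genes. With the marker covariate 5 and 0 were higher, beside 1337 and 447 of all 10890. Mogs, the glucosidase that starts the trimming of the glycan, was at 169.5 ± 20.9 and 216 ± 17.9 in Mx1-Cre (log2 fold change 0.35, limma adjusted p = 0.0146) and at 153 ± 17.3 and 156 ± 25.4 in P95H (0.02, limma adjusted p = 0.92). After PHZ, the level of Mogs was lower in the mutant (-0.48, limma adjusted p = 0.0103), but the difference between its PHZ responses did not pass (-0.33, limma adjusted p = 0.798). Without Mx1-Cre PBS replicate 4 the Mogs rise in Mx1-Cre did not pass (adjusted p = 0.0544). The sugar-binding protein Mlec and the cargo receptor Lman2 rose in Mx1-Cre (0.32 and 0.30) and had 0.19 and 0.16 in P95H, not called. The glycoprotein glucosyltransferase Uggt2 was the 1 gene of the 115 that was higher in P95H after PHZ (0.53, limma adjusted p = 0.00328). The difference between the PHZ responses of Uggt2 did not pass (0.42, limma adjusted p = 0.798).

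Among 20 genes of ER-associated degradation, beside Edem1, 6 were higher in Mx1-Cre and 4 in P95H, with 0 lower. Shares over all genes tested were 17% and 12.6% called higher. With the library factor divided out, 7 and 9 of the list were higher, beside 2236 and 2583 of all 10896 genes. With the marker covariate 5 and 0 were higher, beside 1337 and 447 of all 10890. Sel1l, the scaffold of a ubiquitin ligase complex, rose in both (0.33 and 0.28, limma adjusted p = 0.00182 and 0.00664). The ubiquitin-conjugating enzyme Ube2g2 rose in Mx1-Cre (0.26, limma adjusted p = 0.00994), and Ube2j1 in P95H (0.25, limma adjusted p = 0.0147). Without P95H PBS replicates 4 and 5 the P95H calls of Sel1l and Ube2j1 did not hold (adjusted p = 0.0853 and 0.103). Herpud1, a ligase adaptor, was lower in PHZ-treated P95H than in PHZ-treated Mx1-Cre (-0.32, limma adjusted p = 0.0249). The difference between the PHZ responses of Herpud1 did not pass (-0.31, limma adjusted p = 0.798).

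Of 21 genes of translocation, signal peptidase and early transport, 10 were higher and 1 lower in Mx1-Cre and 5 higher and 2 lower in P95H. Shares over all genes tested were 17% higher and 14.9% lower in Mx1-Cre, and 12.6% and 17.7% in P95H. With the library factor divided out, 11 and 9 of the list were higher, beside 2236 and 2583 of all 10896 genes. With the marker covariate 5 and 0 were higher, beside 1337 and 447 of all 10890. Sec61a1, the pore subunit through which proteins enter the ER, rose in both (0.41 and 0.35, limma adjusted p = 0.000648 and 0.00241), and Srprb, of the signal recognition particle receptor, rose in Mx1-Cre (0.42, limma adjusted p = 0.00197) and had 0.25 in P95H (limma adjusted p = 0.0503). Sec24d, a cargo subunit of the vesicle coat COPII, fell in both (-0.68 and -0.91, limma adjusted p = 2.28e-05 and 6.02e-07). Of 6 genes of ER calcium handling, 2 were higher in each genotype, the calcium pump Atp2a2 (0.46 and 0.38) and the calcium sensor Stim1 (0.17 and 0.21). The Stim1 call in Mx1-Cre was lost without any of 4 libraries, Mx1-Cre PBS replicates 1 and 4 and Mx1-Cre PHZ replicates 2 and 3. Of 5 peptidyl-prolyl isomerases, 0 were called by limma in either, the smallest p-values being those of Fkbp9 and Fkbp11 (adjusted p = 0.087 and 0.105 in Mx1-Cre).

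Of 10 further sensors and transducers, 3 were higher and 1 lower in Mx1-Cre, and 2 higher and 2 lower in P95H, with medians of -0.02 and -0.06. Shares over all genes tested were 17% higher and 14.9% lower in Mx1-Cre, and 12.6% and 17.7% in P95H. The P95H counts of this list are near those shares. Mbtps2, a protease that cuts ATF6, rose in both (0.41 and 0.39, limma adjusted p = 0.00107 and 0.00169). The membrane-bound transcription factor Creb3l2 fell in both, from 8.40 ± 1.13 to 3.68 ± 0.378 in Mx1-Cre and from 7.86 ± 1.12 to 3.72 ± 0.817 in P95H (SD, n = 5; log2 fold changes -1.003 and -0.91). Eif2ak3, which encodes the sensor PERK, was not called (-0.04 and -0.06). Of 8 genes of the PERK and ATF4 branch, 3 were called higher and 1 lower in Mx1-Cre, and 3 higher and 2 lower in P95H, with medians of 0.19 and 0.06. Eif2s1, which encodes the translation factor subunit that PERK phosphorylates, rose from 232 ± 17.6 to 321 ± 10.1 in Mx1-Cre and from 219 ± 15.4 to 294 ± 7.51 in P95H (SD, n = 5; 0.47 and 0.42, limma adjusted p = 1.99e-06 and 6.35e-06). The other 2 called higher were Nupr1 and Trib3, which reached the filter value of 1 mainly after PHZ, so their calls support nothing. The counts and medians of this list include them. Nupr1 was at 0.603 ± 0.295 and 3.80 ± 0.823 in Mx1-Cre and at 0.961 ± 0.525 and 4.33 ± 1.12 in P95H. The pseudokinase Trib3 was at 0.399 ± 0.180 and 1.07 ± 0.348 in Mx1-Cre and at 0.469 ± 0.107 and 1.38 ± 0.335 in P95H, and reached 1 in 0 PBS libraries. Sesn2, a stress-inducible sestrin, fell in both (-0.25 and -0.42, limma adjusted p = 0.0315 and 0.00099). With the library factor divided out, or with the marker covariate, 0 genes of this list were lower in Mx1-Cre, beside 1216 and 1093 of all genes. Ddit3, which encodes the stress factor CHOP, fell in P95H (-0.47, limma adjusted p = 0.000936) and had -0.24 in Mx1-Cre (limma adjusted p = 0.0594). It was called lower in Mx1-Cre too with quantile normalization, with the compared groups alone, and without replicate 5 of Mx1-Cre PBS or of Mx1-Cre PHZ (adjusted p-values of 0.0173 to 0.039). Atf4 was not called in either (0.23 and -0.06).

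Of the list genes named above by rule, those called in Mx1-Cre stayed called with the granulocyte and monocyte marker covariate except Creld2 (adjusted p = 0.0721), Tmx3 (0.106) and Mogs (0.0768). In P95H the calls of Creb3l2, Sec24d and Stim1 held with it. The P95H calls of Tmx3 (adjusted p = 0.0747), Ddit3 (0.0817), Ube2j1 (0.111), Mbtps2 (0.14), Atp2a2 (0.186), Sec61a1 (0.261), Ero1l (0.329), Sdf2l1 (0.605) and Sel1l (0.668) did not. Without P95H PHZ replicate 5, 7 of the named genes not called in P95H passed (adjusted p-values of 0.00323 to 0.0482): Hyou1, Creld2, Pdia5, Mlec, Lman2, Srprb and Fkbp11. With the library factor divided out, Hyou1, Creld2, Pdia5, Mlec, Lman2, Ube2g2 and Srprb passed in P95H (adjusted p-values of 0.00900 to 0.0306).

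**Figure D4:**
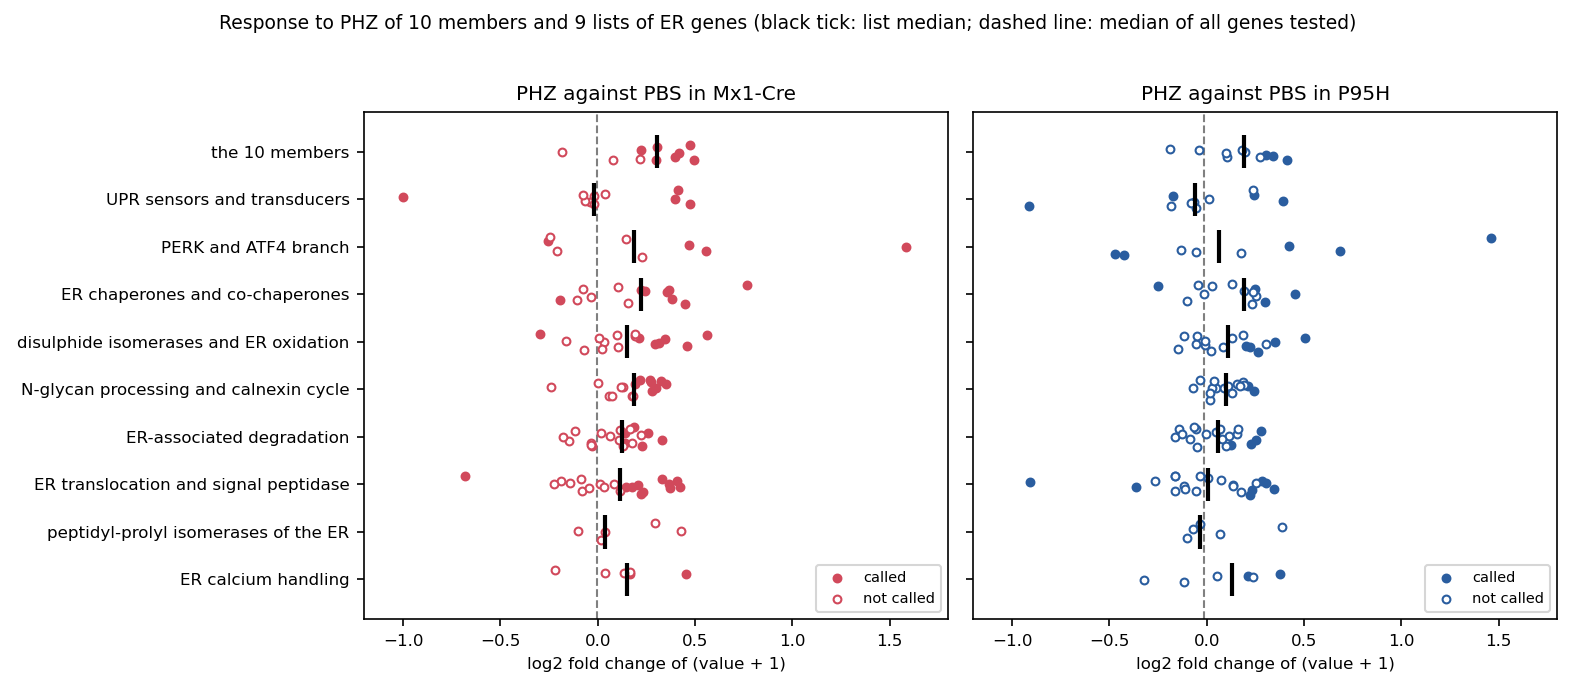
Log2 fold changes after PHZ of the 10 genes and of the 115 genes tested in 9 ER lists, in Mx1-Cre (left) and P95H (right), with filled points for an adjusted p under 0.05, a black tick for the median of each list and a dashed line for the median of all genes tested. Of the 115, 46 are called higher and 5 lower in Mx1-Cre, and 26 and 7 in P95H. Those called higher include Nupr1 and Trib3, which reached the filter value mainly after PHZ. Creb3l2 and Sec24d are the far points on the left, and Nupr1 the far point on the right.

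By position (GENCODE vM21, GRCm38), the 10 genes lie on 7 chromosomes. Canx (chr11:50293961-50325673), Xbp1 (chr11:5520659-5525893) and Ern1 (chr11:106394650-106487852) share chromosome 11, while Pdia4 (chr6:47796141-47813430) and Edem1 (chr6:108828641-108859356) share chromosome 6. Hspa5 is at chr2:34771970-34777547, Hsp90b1 at chr10:86690209-86705509, Calr at chr8:84841850-84846934, Dnajb9 at chr12:44205559-44210326 and Atf6 at chr1:170704674-170867771. The promoter windows of Hspa5, Hsp90b1, Calr and Ern1 overlap the GENCODE gene in part, by 120, 65, 3 and 56 bases, and that of Dnajb9 lies within it, while those of Canx, Pdia4, Edem1 and Xbp1 do not overlap their gene. Hsp90b1 overlaps Gm15344 on its own strand, listed at up to 4.43, and 1810014B01Rik on the other, at up to 7.20. Whether counting used the strand is not stated in the labels, so reads of these genes and Hsp90b1 cannot be told apart.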

How the data were processed

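CFU-E of 4 groups of 5 libraries were sequenced as 150 bp paired-end reads, per the labels' protocols, with a stated minimum of 100000000 reads. The authors deposited 1 table of expression signal. RSEM 1.2.4, TopHat2 2.0.8b, TopHat and Bowtie, and the builds mm10, GRCm38, hg19 and GRCh37, are listed without role or order, per the submitters' processing notes. In each library, 100% of the deposited signal values were whole multiples of 0.01 of 1 library factor (0.940 to 1.10, tolerance 0.01 of a step), the form of TPM rounded and scaled once. The values hold no counts, so depth is unknown. No source used here states where the library factors come from.

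Symbols came from GENCODE vM21 and, for 2 list genes with older names, from RefSeq. Entries that reached 1 in 5 or more libraries were kept (10890). limma 3.58.1 in R 4.3.3 fitted group means to log2(value + 1) over 20 libraries, with trended, robust moderation. Fold changes are on that scale, which understates low genes. The 5 contrasts were two-sided and Benjamini-Hochberg adjusted over all genes kept, at 0.05. The fit was tested on simulated data. Promoters came from RefSeq (GRCm38.p6), and 9 of the 10 genes matched. The members, lists and alternatives were chosen with earlier results of these data known. Named genes were the 10 members, Srsf2, per list up to 3 called genes with the largest change after PHZ (or the 2 with the smallest p), and the 8 most like Hspa5. A gene that this rule names is not reported here. Other list genes named (Uggt2, Herpud1, Eif2ak3, Atf4, Eif2s1 and Sesn2) were chosen after their values were seen. Alternatives were TMM factors, quantile normalization, the library factor divided out, pseudocounts of 0.1 and 5, no filter, a filter at 5, the compared groups alone, a replicate block, granulocyte markers as a covariate, and libraries left out.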

Additional observations from a re-analysis of the deposited data

Results flagged for a closer look

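In Mx1-Cre PBS, replicate 4 stood apart as the lowest of its 5 libraries for 3 of the chaperone genes, Hsp90b1 at 283, Calr at 479 and Pdia4 at 54.0, where the gap to the next library took up most of the range of the group. In Mx1-Cre PHZ, replicate 5 stood apart for Ern1, at 4.30. These were 4 of 40 combinations of a gene and a group, and chance flags about 1 in 20, or 2 of 40.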

How the results depend on the processing

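Each of the 10 genes in each of the 5 contrasts was refitted under the alternatives: of 1140 fits of these 50 results, 1078 kept direction and side of the threshold, 16 lost a call, 9 gained one and 37 changed sign, 0 of the latter in a called result. The cause was not tested for any of them. The number of the 10 called after PHZ in Mx1-Cre (7) was 3 with the marker covariate, and 5 to 7 with 1 library left out. In P95H (3) it was 5 with quantile normalization, 7 with the library factor divided out, 1 with the covariate, and 2 to 6 with 1 library left out. Genes called over the whole table after PHZ in P95H (3294) were 1009 with the covariate and 2100 without P95H PBS replicates 4 and 5. Between genotypes after PBS (161) they were 78 with the compared groups alone, 98 without those replicates and 90 to 180 with 1 library left out. After PHZ (596) they were 291 with quantile normalization, 278 with the library factor divided out, 345 with the compared groups alone and 319 to 696 with 1 library left out. For the difference of responses, 1 gene passed with no filter.

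Signs changed as follows. With the library factor divided out, Xbp1 after PHZ in P95H was 0.065, Atf6 and Ern1 between genotypes after PHZ were 0.051 and 0.011, and the response difference of Dnajb9 was 0.047. With quantile normalization, Dnajb9 between genotypes after PBS was 0.011 and Atf6 after PHZ was 0.063. With a pseudocount of 5 the response difference of Dnajb9 was 0.002. With the covariate, Hspa5, Hsp90b1 and Pdia4 after PHZ in P95H were -0.013, -0.049 and -0.075, and the response difference of Ern1 was -0.024. With 1 library left out, Xbp1 after PHZ in P95H ran from -0.152 to 0.066. Between genotypes after PBS, Hsp90b1 ran from -0.004 to 0.157, Calr from -0.011 to 0.131, Pdia4 from -0.012 to 0.127 and Dnajb9 from -0.128 to 0.021. After PHZ, Pdia4 ran from -0.138 to 0.012, Edem1 from -0.001 to 0.045 and Atf6 from -0.067 to 0.040. The response difference ran from -0.083 to 0.065 for Dnajb9 and from -0.039 to 0.044 for Ern1.

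Same-numbered libraries of the groups compared had correlations of their deviations between -0.306 and 0.270, with at most 3 of 5 pairs over 0.1, and at most 3 of 5 libraries correlated best with their own number. The numbers were therefore not taken as a pairing. With the replicate block, 3579 genes were called after PHZ in Mx1-Cre, beside 3474 without, and 0 of the 50 results changed. Of the named list genes, Hyou1 (adjusted p = 0.0457) and Srprb (0.0395) were then called higher in P95H and Ddit3 (0.0413) lower in Mx1-Cre. The depth behind each value is unknown, so the spread between libraries alone sets the precision.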

Other observations

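The 10 genes differed in how much they varied between libraries of 1 group. Edem1 in P95H PBS was the tightest, with a coefficient of variation of 1.85%. Ern1, the lowest in signal of the 10, was at 3.46% in Mx1-Cre PBS, 3.70% in P95H PBS, 5.52% in P95H PHZ and 10.47% in Mx1-Cre PHZ. Dnajb9 in Mx1-Cre PBS was the widest at 20.5%, followed by Xbp1 in P95H PBS at 19.1% and Hspa5 in P95H PBS at 17.5%. The spread of Dnajb9 was 6.51% in P95H PBS. These coefficients were not tested between groups.

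Sdc1, which encodes the surface proteoglycan syndecan-1 and is often used to mark plasma cells, rose after PHZ in both genotypes, by 1.31 on the log2 scale in Mx1-Cre (limma adjusted p = 2.73e-05) and by 1.18 in P95H (limma adjusted p = 7.95e-05). Of the 4 B and plasma cell markers that passed the filter, 1 was called higher and 2 lower in each genotype. The lower ones, Ighm and Cd79a, reached the filter value of 1 in 0 PHZ libraries, so their calls support nothing: Ighm was at 2.49 ± 0.287 and 0.319 ± 0.258 in Mx1-Cre and at 4.65 ± 2.29 and 0.460 ± 0.241 in P95H (SD, n = 5). Shares over all genes tested were 17% higher and 14.9% lower in Mx1-Cre, and 12.6% and 17.7% in P95H. Of the 10 erythroid markers, 2 were called higher and 0 lower after PHZ in Mx1-Cre, with a median log2 fold change of 0.004, and 2 higher and 2 lower in P95H, with a median of 0.15. One of those higher in both, Tfrc, the transferrin receptor, rose from 366 ± 37.7 to 682 ± 73.0 in Mx1-Cre (0.90, limma adjusted p = 9.09e-06) and by 0.75 in P95H (limma adjusted p = 5.67e-05). These genes were chosen after their values were seen.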
